A study of Mus musculus with 7 samples.

Results

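H3K18La, lactylation of lysine 18 on histone H3, was examined at the promoters of voltage-gated and potassium channel genes in the postnatal mouse retina. The members were protein-coding genes whose symbol starts with Kcn, Cacna, Cacnb, Cacng or Hcn, or is Scn followed by a digit, and that had a peak annotated as promoter on a protein-coding transcript. Kcnj10, Cacna1f and Cacna2d4 were set aside by the rule. For a gene in more than 1 promoter peak, the peak nearest the transcription start site was taken. This gave 72 genes of the 9956 protein-coding genes with a promoter peak in the series, each represented by 1 of its 108253 peaks. RefSeq lists 135 protein-coding genes under the same symbols. Of these, 47 had peaks that were not protein-coding promoter peaks and 16 had no peak. A gene entered only if a peak was called at some age, so members that passed through the P28 libraries alone had to be higher there, and counts of members are given as descriptions.

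The samples were dissociated retinas of C57Bl/6J mice, with no other genotype or treatment, at postnatal day 4 (P4, n = 2 libraries), 10 (P10, n = 2) and 28 (P28, n = 3). CUT&Tag was used, in which an antibody to the mark brings a transposase that tags the DNA nearby. All values are for whole retina, so a change in the share of a cell type and a change of the mark per cell cannot be told apart. The labels did not say whether libraries of an age came from separate animals, and p-values measure the spread between these libraries.

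Ion channels of these families set how retinal neurons turn a change in membrane voltage into a signal. Potassium channels hold and restore the resting potential, HCN channels carry a cation current that opens on hyperpolarization, calcium channels couple voltage to transmitter release at the ribbon and conventional synapses, and sodium channels carry the spikes of ganglion cells and some amacrine and bipolar cells. Rods and cones do not use spikes, and shape their light response with potassium and HCN channels. H3K18La marks active promoters and enhancers and is formed from lactate.

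The values are RPKM, reads divided by the length of the peak and a normalised library size, so that levels of different genes are per length. The RPKM values could be turned back into whole reads. The libraries held between 199970 and 8274373 reads in peaks, of which 203 to 7328 lay in the 72 member peaks. The median member peak held 4.5 and 4.0 reads in the P4 libraries, 2.0 and 3.0 in the P10 libraries and 13.0 to 64.0 in the P28 libraries. At P4, 19 members had no more than 3 reads in each library, and at P10 this held for 34 members, whereas no member was that low at P28. Reads in peaks made up 16.3% and 17.6% of the normalised library size at P4, 36.1% and 52.1% at P10 and 42.4% to 57.1% at P28. This share moved with age in the same direction as the main result, and its part in that result was tested only by the other scalings given below.

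Most peaks sat on a start site of some annotated transcript, which was not always the RefSeq start used for the sequences below. In 69 of the 72 members the peak overlapped the annotated start site, and 65 peaks held a coding start site of the same gene in GENCODE. Exonic untranslated sequence was overlapped by 65 peaks and coding sequence by 38. The peak of Kcnab2 also held the start site of Nphp4, and its reads cannot be assigned to either gene. Member peaks had a median width of 1289 bases against 1181 for the 9884 other protein-coding genes and a median GC content of 60.5% against 59.5%. Their median CpG observed to expected ratio was 0.55 against 0.69, with a quartile range of 0.39 to 0.71 against 0.53 to 0.81.

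Promoter sequences were taken from RefSeq on GRCm38.p6, as the 300 bases from 250 before to 50 after the start. The table matched 54 of the 72 members, and in 46 the window overlapped the member peak. Kcnv2, Kcnj14 and Kcnb2, described further on, were not among the matches. Shown are Cacnb3, Hcn2 and Scn8a, which rose from P4 to P28, Scn4a, which was among the highest members at both P4 and P28, and Kcnh7 and Kcne1l, which were among the highest at P4. Each window lay entirely inside its gene's peak. The capitals mark GGGCGG, the GC box bound by the SP and KLF factors, on either strand, here always read as CCGCCC.
Cacnb3, chr15:98634517-98634816, plus strand: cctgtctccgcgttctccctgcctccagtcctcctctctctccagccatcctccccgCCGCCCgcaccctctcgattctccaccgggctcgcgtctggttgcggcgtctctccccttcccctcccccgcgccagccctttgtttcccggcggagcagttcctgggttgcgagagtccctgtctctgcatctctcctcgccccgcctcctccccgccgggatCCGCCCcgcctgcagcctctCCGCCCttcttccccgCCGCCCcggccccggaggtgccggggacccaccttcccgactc
Hcn2, chr10:79716384-79716683, plus strand: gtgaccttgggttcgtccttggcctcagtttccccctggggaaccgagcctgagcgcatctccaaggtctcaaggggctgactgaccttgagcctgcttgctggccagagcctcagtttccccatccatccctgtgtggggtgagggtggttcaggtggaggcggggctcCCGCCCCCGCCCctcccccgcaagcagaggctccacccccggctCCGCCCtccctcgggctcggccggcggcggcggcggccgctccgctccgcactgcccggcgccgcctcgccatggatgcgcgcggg
Scn8a, chr15:100870395-100870694, plus strand: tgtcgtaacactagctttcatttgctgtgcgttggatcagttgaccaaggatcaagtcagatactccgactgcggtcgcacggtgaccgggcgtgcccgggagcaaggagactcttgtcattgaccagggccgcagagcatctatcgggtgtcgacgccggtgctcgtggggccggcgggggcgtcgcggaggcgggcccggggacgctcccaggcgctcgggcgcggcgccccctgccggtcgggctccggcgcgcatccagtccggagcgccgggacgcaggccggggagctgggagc
Scn4a, chr11:106349341-106349640, minus strand: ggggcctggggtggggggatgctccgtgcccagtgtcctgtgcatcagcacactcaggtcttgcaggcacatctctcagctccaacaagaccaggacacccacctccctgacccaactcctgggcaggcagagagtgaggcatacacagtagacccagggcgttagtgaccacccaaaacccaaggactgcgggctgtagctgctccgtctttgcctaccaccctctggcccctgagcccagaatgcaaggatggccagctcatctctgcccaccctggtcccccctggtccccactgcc
Kcnh7, chr2:63184238-63184537, minus strand: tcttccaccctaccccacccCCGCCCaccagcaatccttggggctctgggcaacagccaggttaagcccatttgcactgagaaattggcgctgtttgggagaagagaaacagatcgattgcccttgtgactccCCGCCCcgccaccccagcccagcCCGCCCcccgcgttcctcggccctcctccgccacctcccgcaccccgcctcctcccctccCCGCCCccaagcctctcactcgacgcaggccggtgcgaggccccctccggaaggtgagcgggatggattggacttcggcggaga
Kcne1l, chrX:142306149-142306448, minus strand: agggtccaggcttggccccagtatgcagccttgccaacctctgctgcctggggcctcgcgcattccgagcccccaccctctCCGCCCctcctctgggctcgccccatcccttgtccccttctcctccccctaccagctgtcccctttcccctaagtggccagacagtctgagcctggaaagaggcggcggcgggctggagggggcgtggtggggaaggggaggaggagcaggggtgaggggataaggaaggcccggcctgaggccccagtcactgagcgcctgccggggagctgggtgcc

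The GC box count did not separate these genes by the direction of their values. Cacnb3 and Kcnh7 each had 4 GC boxes, Hcn2 had 3, Kcne1l had 1, and Scn8a and Scn4a had none. Scn8a had a CpG observed to expected ratio of 1.05 in the window and Scn4a had 0.14, at GC contents of 70.0% and 63.0%. Over the members whose window overlapped the peak, the GC box was present in 28 of 46 (60.9%), against 68.1% of the 7142 windows of all protein-coding genes chosen in the same way. TAATCC, the core recognised by the photoreceptor factors CRX and OTX2, was present in 4 member windows (8.7% against 5.9%), those of Cacna1s, Kcng4, Kcnj9 and Scn7a. The E-box CACGTG was present in Kcnj2 and Kcnk5 (4.3% against 10.6%). TGACGTCA, the cyclic AMP response element, was found in 0 of 46 windows (3.4% of all), and TCAGCACC, the left part of the REST element, in 0 of 46 (1.7% of all). All motifs were searched on both strands, and a match describes letters in this window only.

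The question of the comparison of P28 with P4 was how the mark at channel promoters differs between an immature and a mature retina. At an adjusted p below 0.01 (limma on log2(RPKM + 1), Benjamini-Hochberg over all peaks), 17 of the 72 members rose and 0 fell. The share that rose, 23.6%, is read against 33.4% of all protein-coding promoters and 18.9% of all peaks, and the share that fell against 0.281% and 4.21%. Lower values with an unadjusted p under 0.05 were found in 3 members (4.17%, against 1.70% of all promoters), and the smallest adjusted p among them was 0.0261. The same contrasts fitted by voom on the recovered reads called 23 members higher and 6 lower, against 53.3% and 1.5% of all promoters in that fit. Every P28 library was above both P4 libraries in 35 members, against 79.8% of all promoters, and below both in 10 members, against 4.51%. The ages overlapped in 27 members. The count of 17 rested on each library. It was 3 without P4 replicate 1, 5 without P4 replicate 2, and 8, 6 and 7 without P28 replicates 1, 2 and 3, with 0 lower in each, against 9.3% to 17.5% of all promoters that rose in these fits. Without either P10 library, 23 members rose and 2 fell (Kcnh7 and Kcnd2), against 55.3% or 55.5% and 0.8% of all promoters. All libraries but P28 replicate 1 belonged to batch 1, so 8 is also the count within batch 1.

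**Figure D1:**
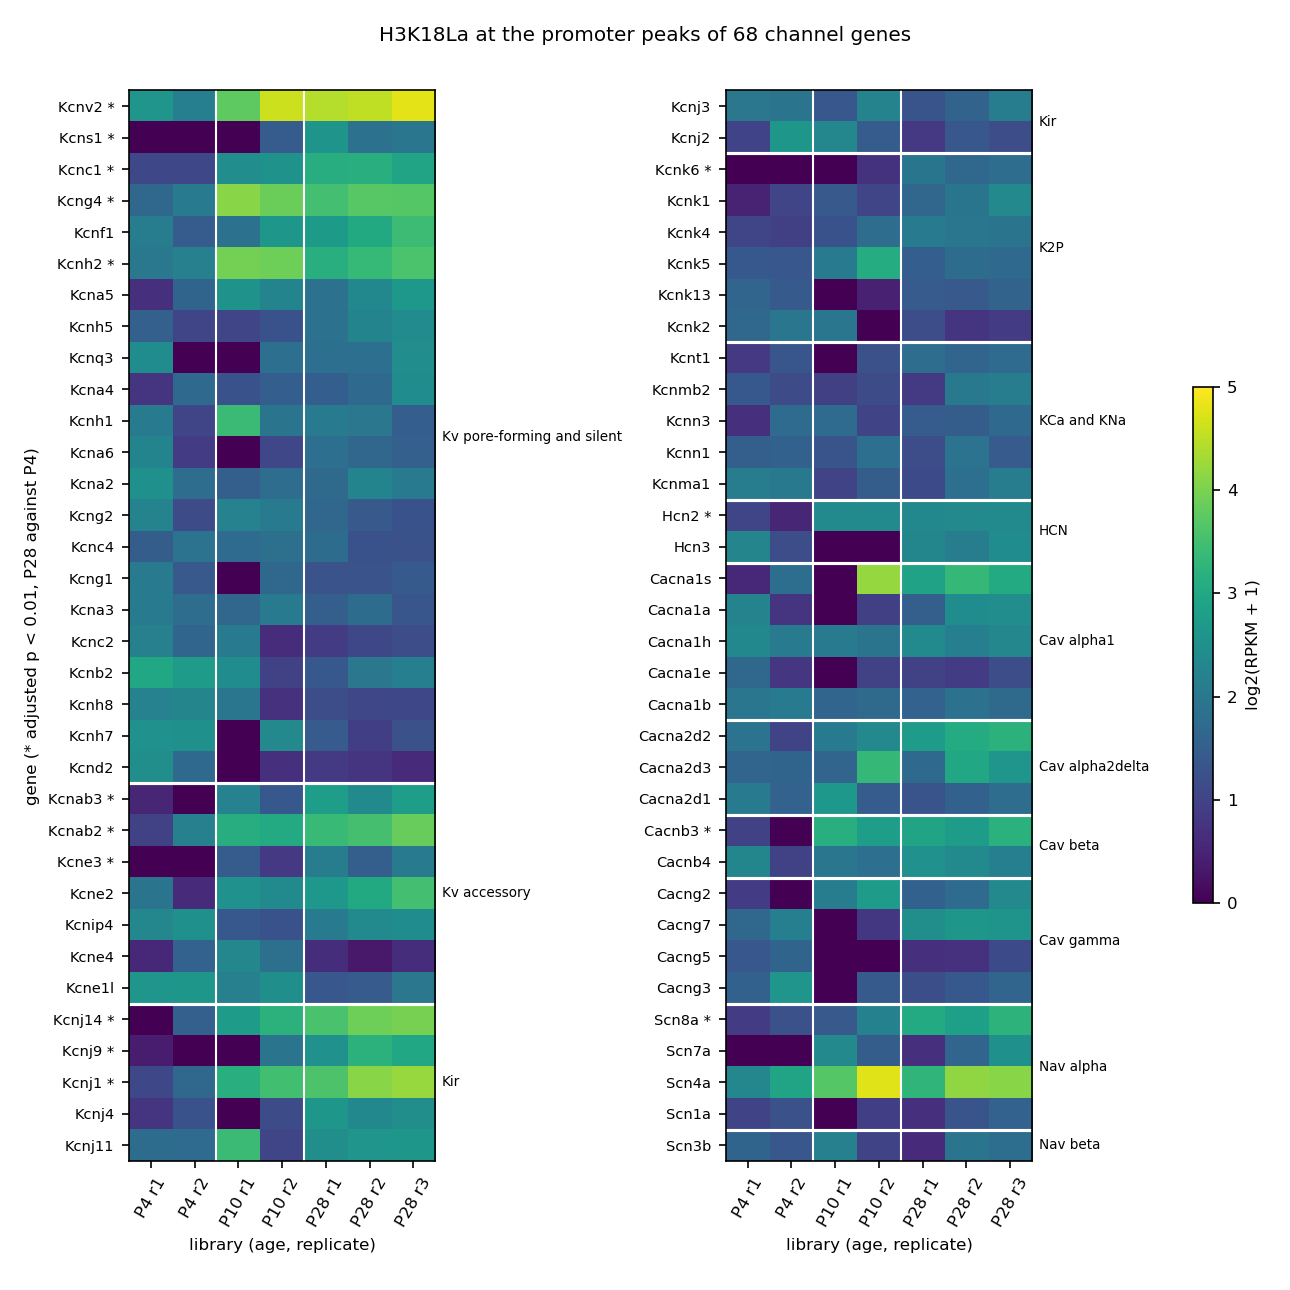
Each row is 1 of 68 of the 72 members, grouped by channel family and ordered within a family by the change from P4 to P28, each column is 1 library, and the colour gives log2(RPKM + 1) from 0 to 5. Bright cells at P10 and P28 are found in rows such as Kcnv2, Kcng4, Kcnh2, Kcnj1, Kcnj14 and Scn4a, and asterisks mark members past the threshold.

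The 17 genes held 15.3% of the summed member RPKM at P4 and 49.0% at P28. These genes were chosen for higher values at P28, so a larger share at that age was built in. Their changes ran from 1.27 (Kcnh2) to 3.05 (Kcnj14) in log2(RPKM + 1), a scale that compresses the changes of low genes. Of the 17, 8 had at most 3 reads in each P4 library. The change was above 0 under all 17 alternative settings in 16 of the 17 genes. Kcnh2 was the exception, at -0.05 with libraries scaled to their reads in peaks. None of the 17 passed the threshold in every setting. Hcn2 passed in 6 of the 17 settings, Kcnh2, Kcne3 and Kcns1 in 7 each, and Kcnj1 in 15, the highest number reached.

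The highest P28 level belonged to Kcnv2. Its peak (chr19:27322265-27324148) covered the start site and coding sequence of exon 1. Kcnv2, which encodes Kv8.2, a subunit that forms no channel alone and joins Kv2 subunits in photoreceptors, had 5.06 and 3.48 RPKM at P4, 12.5 and 23.4 at P10 and 20.6, 22.1 and 26.7 at P28. Both P10 libraries and all P28 libraries were above the P4 libraries, and P10 and P28 overlapped. Its mean rose 5.41 times from P4 to P28 (log2 change 2.20 ± 0.32 SE, adjusted p = 0.000772), and the P4 values rested on 21 and 11 reads. Scaled to reads in peaks the change was 0.84 (adjusted p = 0.0226), and with quantile normalization 0.77 (adjusted p = 0.0529). Kcnv2 did not pass in either setting. Kcnb2, a Kv2 gene, had 6.88 and 5.78 RPKM at P4, 4.37 and 0.95 at P10 and 1.59, 2.94 and 3.45 at P28. Its P28 libraries were all below P4, but the change of -1.03 ± 0.49 did not pass (adjusted p = 0.11).

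Among the other Kv genes were those of the Kv3 family, whose fast channels allow high firing rates. Kcnc1 (Kv3.1) had 1.13 and 1.11 RPKM at P4, 4.49 and 4.90 at P10 and 7.67, 7.76 and 6.55 at P28, without overlap between any of the ages, and rose by 1.97 ± 0.32 (adjusted p = 0.00136). Kcnc2 (Kv3.2) had 3.53 and 2.11 RPKM at P4, 3.19 and 0.56 at P10 and 0.83, 1.13 and 1.28 at P28. It was below P4 in all P28 libraries without passing the test (-0.86 ± 0.52, adjusted p = 0.202), and Kcnc4 changed by -0.27 (adjusted p = 0.617).

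The electrically silent subunits, which modify Kv2 channels, had 6 members, of which 3 rose, against 33.4% of all promoters. Besides Kcnv2 these were Kcng4 and Kcns1. Kcng4 (Kv6.4) had 2.18 and 3.22 RPKM at P4, 16.2 and 13.7 at P10 and 10.4, 12.01 and 11.8 at P28, so that both P10 libraries were above P28, a difference that did not pass (adjusted p = 0.395), and its change from P4 to P28 was 1.76 ± 0.28 (adjusted p = 0.00126). Scaled to reads in peaks that change was 0.49 (adjusted p = 0.198), and with quantile normalization 0.74 (adjusted p = 0.0603). Kcng4 did not pass in either setting. Kcns1 (Kv9.1) had 0 reads in both P4 libraries, 0.00 and 1.73 RPKM at P10 and 4.99, 2.65 and 2.91 at P28. Set against 3 reads in each P4 library, its P28 mean was at least 3.05-fold higher (adjusted p = 0.0085). The other silent subunits were Kcnf1 (1.27 ± 0.40, adjusted p = 0.0279), Kcng1 (-0.39) and Kcng2 (-0.25), and none of these passed.

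Kcnh2, which encodes the ERG channel, had 3.02 and 3.55 RPKM at P4, 14.5 and 13.8 at P10 and 7.90, 9.25 and 10.9 at P28. The P10 libraries were again above P28 without passing (adjusted p = 0.2), and the rise from P4 to P28 was 1.27 ± 0.28 (adjusted p = 0.00636). Of its relatives, Kcnh1, the EAG channel of the rod inner segment, varied more between replicates than between ages, with 3.22 and 1.06 RPKM at P4, 9.59 and 2.79 at P10 and 3.25, 2.94 and 1.83 at P28 (0.30 ± 0.53, adjusted p = 0.663). Kcnh5 (0.89), Kcnh7 (-1.32) and Kcnh8 (-1.14) did not pass. The 5 Kv1 members, Kcna2, Kcna3, Kcna4, Kcna5 and Kcna6, low-threshold channels of axons, ran from -0.40 to 1.14 and none passed. Kcnq3, a subunit of the M current, changed by 0.82 (adjusted p = 0.397).

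Of the 7 Kv accessory genes, 3 rose (42.9%, against 33.4% of all promoters). Kcnab2, a cytoplasmic beta subunit, had 0.96 and 3.54 RPKM at P4, 7.65 and 7.35 at P10 and 9.45, 10.5 and 13.3 at P28 (2.00 ± 0.39, adjusted p = 0.00307), with the start of Nphp4 in the same peak. The mean over its promoter peaks did not pass (1.31, adjusted p = 0.0194). Kcnab3, another beta subunit, had 0.46 and 0.00 RPKM at P4 and 5.87, 4.25 and 5.97 at P28 (2.38 ± 0.44, adjusted p = 0.0025). Kcne3, a single-pass subunit, was at 0 reads in both P4 libraries and had 3.32, 1.86 and 3.20 RPKM at P28, which was at least 1.82-fold higher than 3 reads per P4 library (adjusted p = 0.00664). Kcne2 was just outside the threshold at an adjusted p of 0.0108 (1.80 ± 0.45), and Kcne4, Kcnip4 and Kcne1l had values below 0.

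Inward rectifiers, which set the resting potential, held the largest changes. The peaks of Kcnj14 (chr7:45824461-45825411) and Kcnj1 (chr9:32371561-32373187) covered a start site with the untranslated exon after it. Kcnj14 (Kir2.4) had 0.00 and 1.88 RPKM at P4, 5.70 and 8.29 at P10 and 10.8, 13.9 and 14.7 at P28, ordered by age without overlap. Its change from P4 to P28 was 3.05 ± 0.45 (adjusted p = 0.00081), on 0 and 3 reads at P4. Kcnj1 (Kir1.1 or ROMK, best known from the kidney) had 1.12 and 2.20 RPKM at P4, 7.77 and 10.2 at P10 and 11.1, 16.3 and 17.7 at P28. The ages again did not overlap, and the mean rose 9.08 times from P4 to P28 (2.60 ± 0.34), with the smallest adjusted p of any member, 0.000441. Kcnj1 has 2 promoter peaks, and the mean of both changed by 1.63 (adjusted p = 0.00393). The Kcnj1 peak taken here lay upstream of the gene's RefSeq promoter window (chr9:32393735-32394034) and did not overlap it. Kcnj9 (Kir3.3), a G protein-gated subunit, had 0.32 and 0.00 RPKM at P4, 0.00 and 2.77 at P10 and 4.79, 8.32 and 6.91 at P28 (2.71 ± 0.58, adjusted p = 0.0052). Kcnj4 (1.47, adjusted p = 0.0335), Kcnj11 (0.81), Kcnj2 (-0.70) and Kcnj3 (-0.28) did not pass.

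In the K2P family of leak channels 1 of 6 members rose (16.7%, against 33.4% of all promoters). Kcnk6 (TWIK-2) had 0 reads in both P4 libraries, 0.00 and 0.66 RPKM at P10 and 2.86, 2.17 and 2.47 at P28, at least 1.89-fold above 3 reads per P4 library (adjusted p = 0.00327). Kcnk1, Kcnk4, Kcnk5, Kcnk13 and Kcnk2 ran from -0.88 to 1.21 without passing. None of the 5 calcium- or sodium-activated genes passed. Kcnma1, the BK channel that shapes inner retinal signals, had 3.35 and 3.05 RPKM at P4, 1.03 and 1.79 at P10 and 1.19, 2.55 and 3.33 at P28 (-0.38 ± 0.45, adjusted p = 0.512), and Kcnmb2, Kcnn1, Kcnn3 and Kcnt1 ran from -0.03 to 0.64.

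Hcn2, a pacemaker channel subunit also found in the inner retina, had 1.06 and 0.46 RPKM at P4, 4.20 and 4.28 at P10 and 4.07, 4.10 and 4.15 at P28. The P10 and P28 libraries were nearly equal and all were above P4. The change to P28 was 1.56 ± 0.37 (adjusted p = 0.00876), on 3 and 1 reads at P4. Hcn3 had 3.85 and 1.26 RPKM at P4, no read at P10 and 3.89, 3.26 and 4.39 at P28 (0.54 ± 0.47, adjusted p = 0.366).

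Among calcium channel genes the beta subunit gene Cacnb3, which helps bring alpha1 subunits to the membrane, was the single member of 14 that rose. Of all promoters 33.4% rose. It had 0.99 and 0.00 RPKM at P4, 7.87 and 6.02 at P10 and 6.58, 5.76 and 8.10 at P28 (2.46 ± 0.40, adjusted p = 0.0013). The P10 and P28 libraries overlapped. Cacna2d2, an auxiliary alpha2delta subunit, was just outside at an adjusted p of 0.0106, with 2.76 and 1.04 RPKM at P4 and 5.69, 7.46 and 8.24 at P28. Cacna2d1, Cacna2d3 and Cacnb4 did not pass. The 5 pore-forming alpha1 genes, Cacna1a, Cacna1b, Cacna1e, Cacna1h and Cacna1s, ran from -0.28 to 1.90 and none passed, and the same held for Cacng2, Cacng3, Cacng5 and Cacng7, which encode gamma subunits and AMPA receptor regulators, from -0.67 to 1.45.

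Of the sodium channel genes, Scn8a (Nav1.6), the channel of mature axon initial segments, rose. It had 0.83 and 1.36 RPKM at P4, 1.65 and 3.59 at P10 and 7.29, 6.11 and 8.34 at P28, so that the P28 libraries stood above both earlier ages. The rise was 6.62 times (1.98 ± 0.39, adjusted p = 0.00344). Scn1a (Nav1.1), a channel of ganglion and amacrine cells, had 1.04 and 1.36 RPKM at P4, 0.00 and 0.90 at P10 and 0.60, 1.47 and 1.97 at P28 (0.05 ± 0.43, adjusted p = 0.931). Scn4a, the skeletal muscle channel Nav1.4, had 3.99 and 6.54 RPKM at P4, 11.9 and 25.9 at P10 and 8.63, 17.1 and 16.3 at P28, which was among the 4 highest members at both P4 and P28 but did not pass (1.24 ± 0.41, adjusted p = 0.0351). Scn7a (1.60, adjusted p = 0.0475) and the beta subunit gene Scn3b (-0.05) did not pass.

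**Figure D2:**
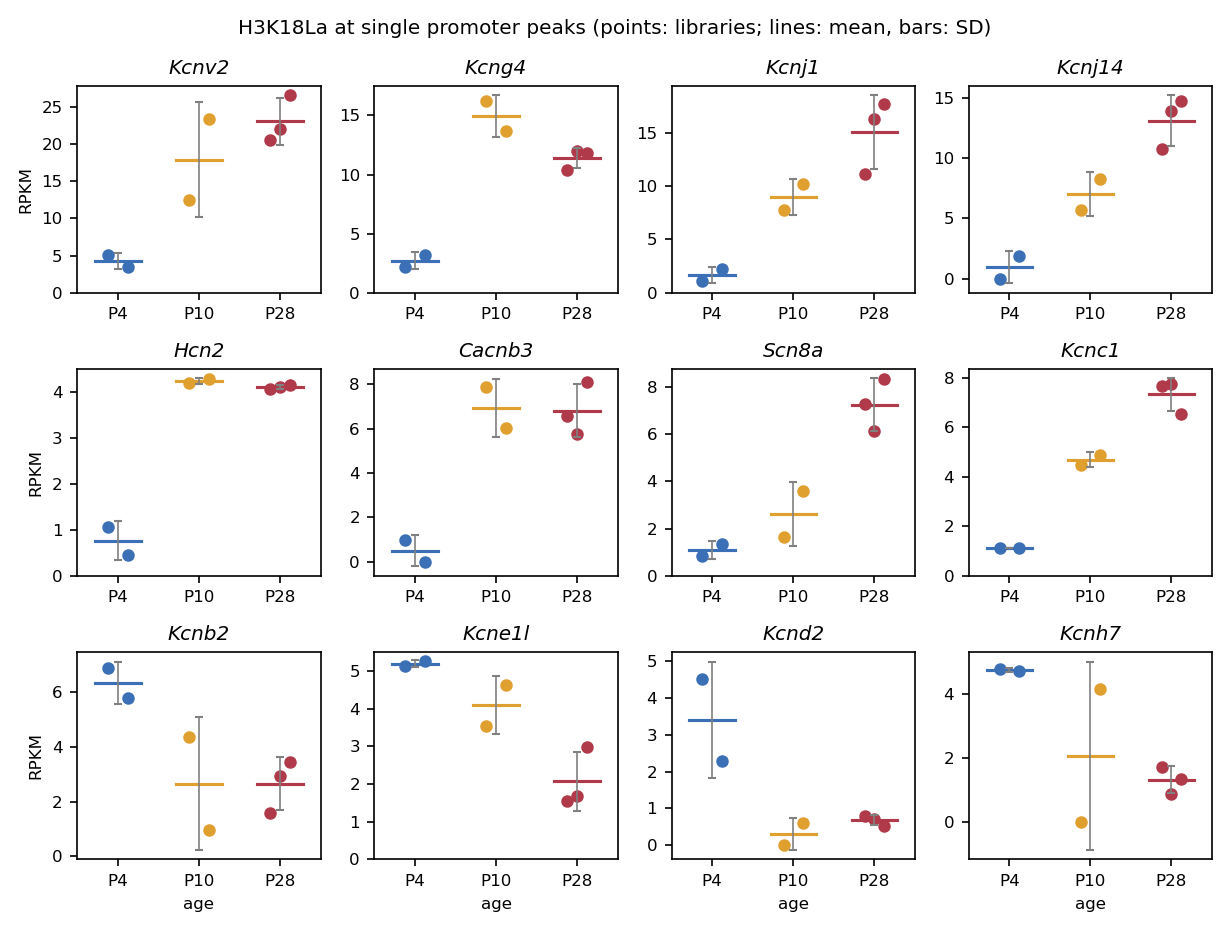
RPKM of 12 member promoter peaks by age, with a point for each library, a coloured line at the mean and a grey bar for the SD (n = 2, 2 and 3). The upper 8 genes passed the test for a rise from P4 to P28, while Kcnb2, Kcne1l, Kcnd2 and Kcnh7 in the bottom row had all P28 libraries below P4 without passing.

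The 10 members with all P28 libraries below P4 were Kcnd2, Kcnh7, Kcnh8, Kcnb2, Kcnc2, Kcna3, Kcne1l, Kcnk2, Cacna1b and Cacng5. Of these, 6 were among the 24 Kv pore-forming and silent subunit genes of the 72 members, next to 4.51% of all promoters. The count was not tested. Kcnd2 (Kv4.2), which carries the A-type current of dendrites, had 4.52 and 2.28 RPKM at P4, 0.00 and 0.60 at P10 and 0.80, 0.70 and 0.53 at P28 (-1.35 ± 0.41, adjusted p = 0.0261). Kcne1l, a single-pass subunit gene on the X chromosome, had 5.13 and 5.27 RPKM at P4, 3.55 and 4.64 at P10 and 1.55, 1.69 and 2.97 at P28 (-1.04 ± 0.37, adjusted p = 0.0466). Kcnh7, an ERG relative, had 4.78 and 4.70 RPKM at P4, 0.00 and 4.14 at P10 and 1.72, 0.89 and 1.36 at P28 (-1.32 ± 0.64, adjusted p = 0.118). None passed in the main test. With voom on the recovered reads, Kcnd2 (-2.28, adjusted p = 0.00044), Kcne1l (-1.44, adjusted p = 0.00205), Kcnh7 (-2.03, adjusted p = 0.00215), Kcnh8, Kcnb2 and Kcnc2 passed as lower. Libraries scaled to reads in peaks and quantile normalization also gave 6 lower members each, median centring gave 2 and library weights gave 3. The shares of all promoters that fell were 1.5% with voom, then 3.0%, 3.3%, 1.2% and 0.7% in that order.

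Channel genes as a group stood higher than other promoters at P4 and lower at P28. The median over members of the mean level went from 2.11 RPKM at P4 through 2.55 at P10 to 2.81 at P28, and over the 9884 other protein-coding genes from 1.62 through 2.86 to 5.03. On the log2 scale the members changed by a median of 0.64 between P4 and P28 against 1.35 for all promoters, and 47 members had a value above 0. Counted against a floor of 3 reads where P4 was that low, these medians were 0.36 and 1.06. Within each library, the member median minus the median of the other genes was 0.28 and 0.13 at P4, -0.03 and -0.30 at P10 and -0.69, -0.62 and -0.59 at P28. The 3 ages did not overlap. Its mean fell by 0.84 from P4 to P28, and the drop lay between 0.60 and 1.09 under the settings tried, which includes every library thinned to the depth of the smallest.

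**Figure D3:**
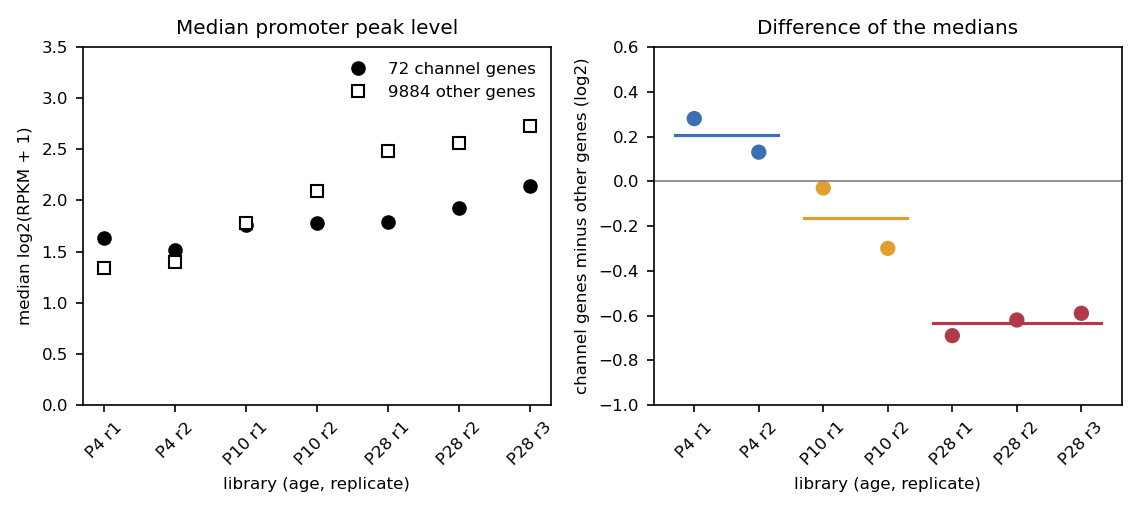
Left, the median log2(RPKM + 1) of the promoter peaks of the 72 channel genes (filled circles) and of 9884 other genes (open squares) in each library, and right, the first minus the second, with a line at the mean of each age. The difference was above 0 in both P4 libraries and between -0.69 and -0.59 in the P28 libraries.

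The direction of the group's own median depended on the scaling. It was 0.64 with the deposited normalization, 0.12 with median centring, -0.13 with quantile normalization and -0.45 with libraries scaled to their reads in peaks. The median of all protein-coding promoters under the same settings was 1.35, 0.83, 0.71 and 0.32, so that the members' median was the lower one in each. With libraries scaled to reads in peaks 2 members rose and 6 fell, and with quantile normalization 10 rose and 6 fell, against 17 and 0 in the main fit. The corresponding shares of all promoters were 7.0% and 3.0%, then 16.9% and 3.3%.

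**Figure D4:**
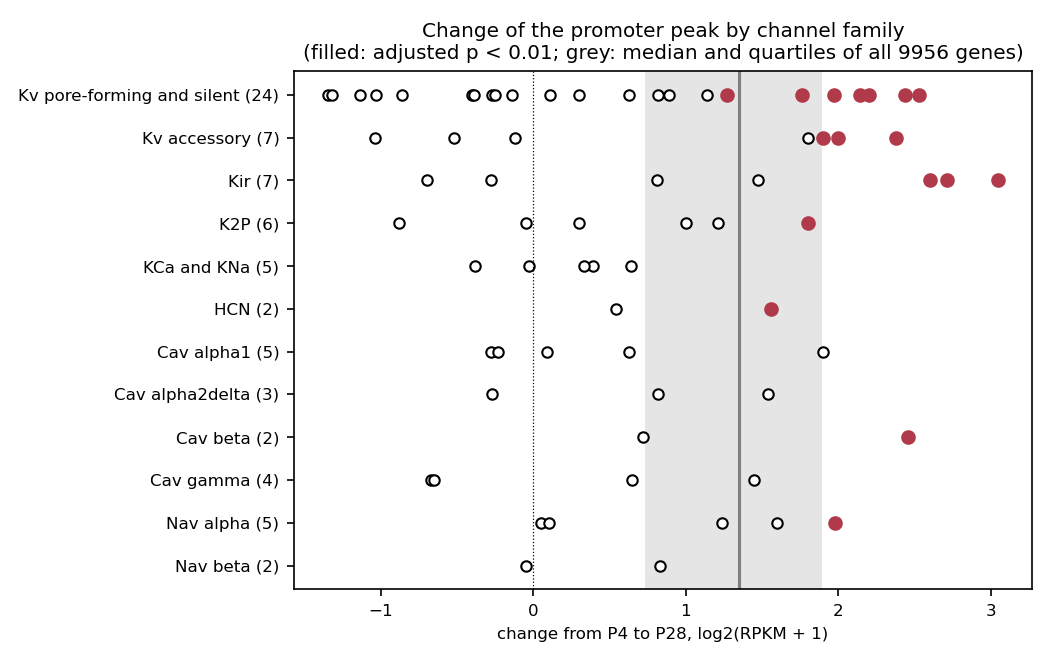
Each point is 1 member, placed by its change from P4 to P28 in log2(RPKM + 1) on the horizontal axis and by family on the vertical axis, with filled points past an adjusted p of 0.01. The grey line and band are the median (1.35) and quartiles (0.73 to 1.89) of all 9956 genes, and most members lie to the left of the line.

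CpG content did not order the members by change. Spearman's rho between the CpG ratio of the peak and the change from P4 to P28 was -0.11 over the 72 members and 0.09 over all 9956 genes, and with the P28 level it was -0.06 and 0.20. These points share libraries and base composition and are given without a p. Members with a CpG ratio of up to 0.4 had a median change of 1.14 (n = 19), next to 1.03 in the other genes of that range. Between 0.4 and 0.6 the medians were 0.11 (n = 25) and 1.34, and above 0.6 they were 0.42 (n = 28) and 1.40. The lower medians of members were thus seen in the CpG-richer ranges, and in the CpG-poor range 5 of 19 members rose against 27.8% of the other genes. Between 0.4 and 0.6, 5 of 25 rose against 32.2%, and above 0.6, 7 of 28 rose against 35.1%.

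At P10 part of these differences was already present. Against P4, 8 members rose and 1 fell at an adjusted p below 0.01, next to 11.6% and 0.864% of all promoters, and 11.4% and 7.34% of all peaks. Among the 8 were Kcng4, Kcnh2, Cacnb3, Kcnj1, Kcnv2 and Kcnj14. All 8 also rose at P28, but that test shares the P4 libraries, so this agreement is partly built in and was not tested. The P10 changes were 2.12 for Kcng4 (adjusted p = 0.00145), 1.83 for Kcnh2 (0.00257), 2.48 for Cacnb3 (0.00294), 1.93 for Kcnj1 (0.00409), 1.80 for Kcnv2 (0.00442) and 2.22 for Kcnj14 (0.00742). The gene that fell was Cacng5, with 1.57 and 2.06 RPKM at P4, no read at P10 and 0.60, 0.64 and 1.19 RPKM at P28. Its P4 libraries had at most 3 reads each, and its P10 change was -1.49 (adjusted p = 0.00798). Both P10 libraries were above both P4 libraries in 24 members and below in 16, against 46.1% and 8.96% of all promoters. The count of 9 calls was 2 without either P4 library, 13 and 11 without P10 replicates 1 and 2, and 4, 3 and 4 without P28 replicates 1, 2 and 3. The shares of all promoters called in either direction were 12.4% with all libraries, then 2.8% and 3.1%, 15.6% and 13.9%, and 7.2%, 4.9% and 6.5%.

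Between P10 and P28 no member passed 0.01 in limma, where 0.00185% of all peaks did, and 15 members (20.8%) had an unadjusted p under 0.05, against 39.5% of all promoters. With voom 3 members passed, Kcne4 lower and Kcnj9 and Cacng7 higher, against 5.1% of all promoters in either direction. Without P10 replicate 2 the count was 8, all higher, against 20.3%. At an adjusted p below 0.05, 4 members passed, all higher at P28, against 15.7% of all promoters and 13.4% of all peaks in either direction. These were Cacng7 (2.16, adjusted p = 0.0162), Hcn3 (2.27, adjusted p = 0.0182), Kcnk6 (1.44, adjusted p = 0.0299) and Kcnj4 (1.91, adjusted p = 0.0322). Cacng7 had 2.20 and 3.47 RPKM at P4, 0.00 and 0.76 at P10 and 4.58, 5.25 and 5.03 at P28, and Kcnj4 had 0.70 and 1.39, then 0.00 and 1.22, then 5.29, 4.01 and 4.56. In these genes the P10 libraries held 0 to 2 reads. Every P28 library was above both P10 libraries in 28 members and below in 9, against 55.1% and 5.69% of all promoters. Over the 3 ages together, 16 members passed the moderated F test at 0.01, against 29.3% of all promoters and 24.6% of all peaks. That count was 0 and 1 without P4 replicates 1 and 2, 26 without either P10 library, and 4, 2 and 3 without P28 replicates 1, 2 and 3, against 2.6% and 2.4%, 51.4% and 61.0%, and 11.2%, 8.4% and 8.9% of all promoters.

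The marker genes of retinal cell types were read at their own promoter peaks. Of 8 rod markers 7 had a promoter peak, and all 7 rose from P4 to P28, against 33.4% of all promoters. Their summed level was 15.8 to 18.1 RPKM at P4, 126 to 138 at P10 and 110 to 162 at P28, with Nr2e3 at 6.57 and 7.86 RPKM at P4, so that photoreceptor genes were detected at every age. The rod genes thus moved in the same direction as Kcnv2, and the part of rod number in its change was not tested. Of 8 progenitor and cycling markers 4 had a promoter peak (sum 5.2 to 10.7, 2.4 to 5.8 and 11.5 to 13.3 RPKM at the 3 ages) and none passed. Of 7 Mueller glia markers 5 had one (7.7 to 8.6, 20.6 to 22.1 and 21.8 to 25.2 RPKM) and only Glul rose. Of 11 bipolar, amacrine and ganglion cell markers 5 had one (7.9 to 10.2, 14.1 to 20.9 and 17.9 to 22.7 RPKM), of which Slc6a9, the glycine transporter of amacrine cells, rose. The sum of the other 4 was 6.4 to 9.1 RPKM at P4, 6.8 to 7.1 at P10 and 6.1 to 7.8 at P28, and of these Pou4f1 (-1.23, adjusted p = 0.0587) and Rbpms (-0.65, adjusted p = 0.231), both ganglion cell markers, had every P28 library below P4 without passing. Cabp5, a bipolar marker, was at 0 in both P10 libraries, and Pou4f1, a ganglion cell factor, was at 0 in 1 of them.

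Genes for proteins that work with these channels were read as a separate list. Of the 26 partner genes, 23 had a promoter peak, 7 rose from P4 to P28 and none fell, with a median change of 0.91. The share that rose, 30.4%, was close to the 33.4% of all promoters, and the median was below their 1.35. Among the 7 were Cabp4, the calcium sensor of the photoreceptor synapse (2.77, adjusted p = 0.000216), the calmodulin genes Calm2 and Calm3, Unc80 of the sodium leak complex (2.03, adjusted p = 0.00241), Fgf11 (1.89) and the ankyrin gene Ank2 (1.67). Cabp4 had 1.46 and 2.23 RPKM at P4, 17.4 and 13.5 at P10 and 14.7, 21.01 and 19.7 at P28. Fgf12, Fgf13, Fgf14, Dpp6, Dpp10, Amigo1 and Nalcn did not pass.

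Peaks outside promoters were present at 60 of the 72 genes, 549 in all, and 470 of them overlapped the body of the gene they were assigned to. From P4 to P28, 76 (13.8%) rose and 24 (4.4%) fell, against 16.6% and 4.84% of all non-promoter peaks of the series. By class, 52 of 407 intronic peaks rose (12.8%, against 19.5% of all intronic peaks), 11 of 46 exonic peaks (23.9% against 19.0%) and 9 of 79 distal intergenic peaks (11.4% against 11.8%). The 24 that fell held 2 to 15 reads over both P4 libraries, with a median of 4.0, and only 1 of them had 20 reads or more over the 7 libraries, so these calls rest on very few reads. The count of 100 calls was 30 and 31 without P4 replicates 1 and 2, 163 and 166 without P10 replicates 1 and 2, and 59, 46 and 41 without P28 replicates 1, 2 and 3. The member share called in either direction was 18.2% against 21.4% of all non-promoter peaks with all libraries, 5.5% and 5.6% against 6.7% and 7.1% without a P4 library, 29.7% and 30.2% against 36.4% and 36.6% without a P10 library, and 10.7%, 8.4% and 7.5% against 12.9%, 10% and 10% without a P28 library.

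At Kcnmb2, the beta2 subunit of the BK channel, 16 of 47 peaks rose, against 16.6% of all non-promoter peaks. The promoter peak taken for the gene did not (0.39 ± 0.50, adjusted p = 0.541). Kcnmb2 has 2 promoter peaks, and the mean of both changed by 1.09 without passing (adjusted p = 0.0864). The intronic peak at chr3:32130686-32131783 had 2.48 and 1.63 RPKM at P4, 3.29 and 5.03 at P10 and 27.96, 19.7 and 24.2 at P28 (3.03 ± 0.32, adjusted p = 0.000194). It was low at P10, and its P28 values spanned those of the Kcnv2 promoter, the highest member at that age. At Scn4a, 5 of 6 non-promoter peaks rose. An exonic peak at chr11:106343960-106346000 had 2.89 and 5.26 RPKM at P4, 49.5 and 76.1 at P10 and 37.0, 43.0 and 45.4 at P28 (3.11 ± 0.30, adjusted p = 0.00015). Its P10 libraries were the highest of the 3 ages and exceeded any member promoter. An intronic peak of Kcnj1 at chr9:32377228-32377947 changed by 3.82 ± 0.35 (adjusted p = 0.000139).

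Other genes with many peaks differed from one another. Their counts are read against 16.6% of all non-promoter peaks that rose and 4.84% that fell. Kcnma1 had 48 non-promoter peaks, of which 2 rose and 1 fell, with a median change of 0.01, and Kcnh1 had 27, of which 4 rose, with a median of 0.49. Cacna2d3 had 43, of which 5 fell and none rose, with a median of -0.82. The promoter peak taken for it (chr14:28968351-28970084) had 2.10 and 2.06 RPKM at P4, 2.08 and 9.09 at P10 and 2.27, 7.02 and 5.08 at P28 (0.82 ± 0.55, adjusted p = 0.251). That peak held a coding start site of the gene but did not overlap its RefSeq promoter window (chr14:29721815-29722114). The mean of the gene's 2 promoter peaks changed by 0.46 (adjusted p = 0.455). Kcnip4, a Kv4 accessory gene, had 5 of 10 peaks that fell.

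**Figure D5:**
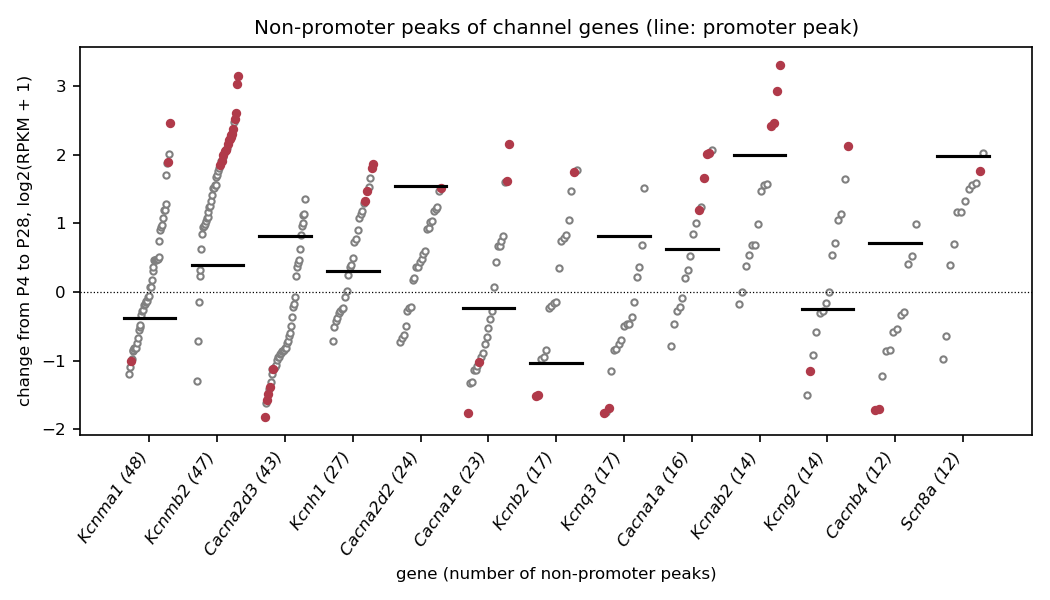
Change from P4 to P28 in log2(RPKM + 1) of each non-promoter peak for 13 member genes with at least 12 such peaks, with filled points past an adjusted p of 0.01 and a black line at the gene's promoter peak. Kcnmb2 has 16 filled points above its line, which is 1 of its 2 promoter peaks, and the points of Cacna2d3 lie mostly below 0.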

How the data were processed

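H3K18La CUT&Tag was measured in 7 retina libraries, grouped by the age in the labels. The authors mapped reads to GRCm38 with nf-core/cutandrun, called peaks with MACS, merged them, counted reads with csaw and annotated peaks with ChIPseeker 1.34.1 on an Ensembl annotation. Peaks were kept by a threshold on q and by presence in at least 2 replicates. The authors deposited RPKM per peak and library, normalised on large genomic windows. Their table of fold changes and p-values from edgeR 3.40.2 and the peak list were not used. RPKM times peak width moved in whole steps of 1 value per library in 100.0% of peaks (tolerance 0.05 reads), which gave the reads per peak. Reads carry no molecular identifiers.

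The member genes and lists were chosen with earlier results of these data known. All 108253 peaks were fitted together in R 4.3.3 with limma 3.58.1, using log2(RPKM + 1), a mean-variance trend and no covariate, and p-values were adjusted over all peaks. A change was called at an adjusted p below 0.01. The fit was tested on simulated reads with few changed peaks, all deeply covered. At the adjusted threshold it called nearly all of the larger changes and few of the smaller ones, so a peak that did not pass is not shown to be unchanged. Named are the 2 called members per family with the smallest p, the extremes by level and by test, a list of channels with retinal roles, and the 4 genes with most non-promoter peaks. An exact permutation test of 3 against 2 libraries cannot go below 0.2 and was not used. Alternatives changed the pseudocount (0.1), read filter (20), scaling, weights, depth, threshold and peak choice, added a replicate block, used voom, and left out each library. Positions are from GENCODE and RefSeq on GRCm38. Some genes are counted but not reported here by name.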

Additional observations from a re-analysis of the deposited data

How the results depend on the processing

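The members that rose from P4 to P28 numbered 17, and this count and the other counts below moved with most settings. Both P4 libraries were shallow, and the depth limits what could be shown for the 19 members with at most 3 reads in each of them. The causes of the changes below were not tested.

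With a pseudocount of 0.1, 9 members were called between P28 and P4, all higher (22.7% of all promoters), and 6 over the 3 ages (17.8%). That setting called 58 non-promoter peaks (10.6%, against 12.8% of all). The median changes were 0.97 (P28 against P4) and 0.65 (P28 against P10), and the excess of members over other genes fell by 1.09. Scaled to reads in peaks, 8 members were called between P28 and P4 (10% of all promoters) and 6 over the ages (9.8%). The median changes were then -0.45 (P28 against P4), -0.70 (P10 against P4) and 0.31 (P28 against P10). Median centring gave medians of 0.12, 0.00 and 0.17 in that order, and quantile normalization -0.13, -0.20 and 0.07 with 2 members called at P10 (3.5% of all promoters). With voom on the recovered reads 29, 3 and 28 members were called (P28 against P4, P28 against P10, over the ages). The shares of all promoters were 54.7%, 5.1% and 51.8%. That fit called 179 non-promoter peaks (32.6%, against 39.6% of all). Its medians were 0.80 (P28 against P4), 0.54 (P10 against P4) and 0.29 (P28 against P10), and the excess fell by 1.04. Library weights gave 28 members at P28, 25 higher and 3 lower (57.1% and 0.7% of all promoters), and 2 at P10 (4.2%). With these weights 192 non-promoter peaks were called (35%, against 40.4% of all). Thinned to the smallest library, 5, 1 and 4 members were called (P28 and P10 against P4, over the ages). The 5 were higher (5.0% of all promoters). The shares of all promoters called in either direction were 5.3%, 1.5% and 3% in that order. The 29 non-promoter peaks called were 5.3%, against 5.2% of all. The medians against P4 were 0.83 and 0.08 and the excess fell by 0.60. An adjusted p below 0.05 gave 26, 20, 4 and 30 members (56.5%, 26.9%, 15.7% and 58.3% of all promoters) and 194 non-promoter peaks (35.3%, against 39.9% of all). The read filter and the mean over all promoter peaks of a gene changed no count by more than 1.5 times, although with that mean Kcnab2 lost its call and Kcnj1 moved from 2.60 to 1.63.

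With a replicate block, 9 members were called between P28 and P4, all higher (18.6% of all promoters), and 9 over the ages (14.9%). The block left 54 non-promoter peaks called (9.8%, against 13.2% of all). The numbers name no shared animal or day, and deviations of libraries with the same number correlated at -0.001 to 0.047 over peaks, so the samples were not treated as paired.

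Leaving out 1 library at a time gave 3 to 25 members called in either direction between P28 and P4, 2 to 13 between P10 and P4, 0 to 8 between P28 and P10, 0 to 26 over the ages and 30 to 166 non-promoter peaks. The medians lay between 0.53 and 0.81 (P28 against P4), 0.11 and 0.33 (P10 against P4) and 0.35 and 0.49 (P28 against P10), and the excess fell by 0.76 to 0.92.

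Among the 27 named genes, the change from P4 to P28 turned negative in some settings for 8, of which only Kcnh2 had passed the test. With libraries scaled to reads in peaks it was -0.39 for Cacna2d3, -0.61 for Cacng7, -0.66 for Hcn3, -0.84 for Kcnh1, -0.05 for Kcnh2, -0.70 for Kcnmb2, -0.98 for Scn1a and -0.15 for Scn4a. Quantile normalization gave -0.25 for Cacng7, -0.20 for Hcn3, -0.37 for Kcnh1, -0.11 for Kcnmb2, -0.35 for Scn1a and -0.29 for Scn4a, and median centring -0.22 for Kcnh1, -0.13 for Kcnmb2 and -0.47 for Scn1a. Thinning gave -0.41 for Kcnmb2 and -0.54 for Scn1a. Leaving out 1 library gave -0.01 (without P4 replicate 2) to 1.09 for Hcn3, -0.22 (without P4 replicate 2) to 0.82 for Kcnh1 and -0.14 to 0.31 for Scn1a. Scn1a was at -0.08 with voom, -0.14 with the replicate block, -0.06 without P4 replicate 1, -0.01 without P28 replicate 2 and -0.14 without P28 replicate 3. With libraries scaled to reads in peaks, Kcnj1 and Kcnk6 were the only members that rose. The change was then 0.70 for Hcn2, 0.85 for Kcnab2, 0.94 for Kcnc1 and 0.98 for Scn8a, and none of these passed.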

Other observations

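Some channel genes with known retinal roles had peaks but no promoter peak on a protein-coding transcript, and so were not among the 72. Cacnb2, the beta subunit of the photoreceptor calcium channel, had 37 peaks, of which 9 rose from P4 to P28 (adjusted p below 0.01, limma) and none fell, with a median change of 1.40. Cacna1d had 27 peaks with 3 higher, and Kcna1 had 3 with 1 lower. Over all peaks 18.9% rose and 4.21% fell, and these counts were not tested.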
